A study of Mus musculus with 6 samples.

Results

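The genes described here encode the subunits of the mitochondrial respiratory chain that are made in the nucleus. They were taken by symbol: a probe belonged to the set if its RefSeq accession led to a gene named Ndufa, Ndufb, Ndufc, Ndufs or Ndufv (complex I), Sdha to Sdhd (complex II), Uqcr (complex III), Cox4i or Cox5 to Cox8 (complex IV) or Atp5 (complex V). The prefixes covered 119 symbols, of which 19 pseudogenes and 12 assembly factors were left out. Of the 88 remaining subunit genes, 85 had a probe on the array, and 83 of these were among the 25782 genes tested. Each gene was read from its brightest probe. Complex I held 38 genes, complex II 4, complex III 8, complex IV 18 and complex V 17. Ndufb1, Ndufb4b and Ndufb4c had no matched probe. The probes of Cox7b2 and Cox8c, isoforms best known from testis, were not above background on any array and were not tested.

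The study asked how exosomes, the small vesicles that cells release, from T lymphocytes of NOD mice affect gene expression in islet cells. NOD mice, a strain that becomes diabetic through autoimmunity, gave the CD4+CD25- T lymphocytes whose culture medium was the source of the exosomes, named exoNOD. All islet cells came from male C57Bl/6N mice, were dispersed, and were cultured for 72 h. The 3 control samples received no exoNOD, and the 3 exoNOD samples received 50 µg/ml. Per the series' design text these were 3 independent experiments, each with its own preparation of islets and of exosomes. The controls received no exosomes of another source, so an effect of exosomes from NOD lymphocytes cannot be told apart from one of exosomes in general. RNA was measured on 1-colour Agilent arrays, 1 per sample.

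The respiratory chain moves electrons from NADH (complex I) and succinate (complex II) through ubiquinone, complex III and cytochrome c to oxygen at complex IV, and complex V uses the resulting proton gradient to make ATP. In beta cells, ATP made by mitochondria during glucose oxidation closes potassium channels and starts insulin release, so these genes are part of the machinery of glucose sensing. Most subunits have a single form in all tissues, while complex IV and the Ndufa4 family also have isoforms restricted to muscle, lung, testis or cells short of oxygen.

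The promoters of respiratory chain genes are known for sites of the factor NRF1 and of ETS factors such as GABPA, and these were looked for in the 250 bases before each start site. RefSeq promoters (build GRCm38.p6) were matched for 69 of the 85 genes, and for 27025 genes in all. The exact NRF1 core, the palindrome in capitals in the first 4 sequences printed here, was present in 4 of the 69 genes (5.8%), against 0.877% of all genes. Its looser form, with any base at the sixth place, includes the exact core and was present in 13 (18.8%) against 4.23% of all genes. The ETS core CCGGAAG was present in 12 (17.4%) against 7.83%, and the YY1 core AAGATGGC in 1 (1.45%) against 1.83%. Both strands were searched, the median GC content was 56.4% in the 69 genes and 52.4% in all genes, and a match is a description of the letters only. The promoters of the 4 genes with the exact NRF1 core are printed, because this core is the sequence feature that the set holds at the greatest ratio to all genes. Those of Ndufa4 and of Cox8b, which hold none of these motifs, stand beside them for comparison. All run 5′ to 3′ on the gene's own strand, and the capitals mark NRF1 or ETS matches on either strand. They lie at chr5:115348959-115349208 (minus strand), chr17:56717512-56717761 (plus), chr15:102671048-102671297 (minus), chr5:108434400-108434649 (minus), chr6:11907451-11907700 (minus) and chr7:140900447-140900696 (minus).
Cox6a1: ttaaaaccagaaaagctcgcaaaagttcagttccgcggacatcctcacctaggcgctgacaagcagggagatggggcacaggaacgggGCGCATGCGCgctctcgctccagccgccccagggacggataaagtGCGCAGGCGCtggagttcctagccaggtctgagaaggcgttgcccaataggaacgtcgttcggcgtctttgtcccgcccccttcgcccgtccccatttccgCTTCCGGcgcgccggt
Ndufa11: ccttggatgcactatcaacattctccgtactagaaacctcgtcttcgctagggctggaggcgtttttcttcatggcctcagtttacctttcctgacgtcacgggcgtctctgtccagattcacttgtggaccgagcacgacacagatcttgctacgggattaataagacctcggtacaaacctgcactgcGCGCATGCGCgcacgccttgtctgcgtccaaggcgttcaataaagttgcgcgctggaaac
Atp5g2: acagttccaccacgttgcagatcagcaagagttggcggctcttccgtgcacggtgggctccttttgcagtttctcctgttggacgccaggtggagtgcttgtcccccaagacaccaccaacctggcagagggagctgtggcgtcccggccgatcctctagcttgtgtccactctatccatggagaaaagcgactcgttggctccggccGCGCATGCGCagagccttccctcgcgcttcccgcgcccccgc
Atp5k: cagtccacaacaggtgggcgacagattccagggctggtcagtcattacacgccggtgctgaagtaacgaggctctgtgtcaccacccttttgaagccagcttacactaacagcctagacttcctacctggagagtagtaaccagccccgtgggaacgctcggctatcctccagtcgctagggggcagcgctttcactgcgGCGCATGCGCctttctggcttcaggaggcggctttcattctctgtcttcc
Ndufa4: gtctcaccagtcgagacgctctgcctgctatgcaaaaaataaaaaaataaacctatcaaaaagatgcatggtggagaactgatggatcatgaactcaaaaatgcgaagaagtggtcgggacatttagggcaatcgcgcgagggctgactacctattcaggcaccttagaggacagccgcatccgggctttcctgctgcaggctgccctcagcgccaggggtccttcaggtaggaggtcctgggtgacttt
Cox8b: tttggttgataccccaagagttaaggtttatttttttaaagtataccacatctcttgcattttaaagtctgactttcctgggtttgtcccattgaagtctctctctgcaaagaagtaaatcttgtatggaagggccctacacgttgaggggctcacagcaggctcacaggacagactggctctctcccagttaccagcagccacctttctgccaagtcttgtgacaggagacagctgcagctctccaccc

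Counted from the start site, the exact NRF1 core began at -162 in Cox6a1, at -60 in Ndufa11, at -42 in Atp5g2 and at -50 in Atp5k. Cox6a1 also held the looser core GCGCAGGCGC at -117, and an ETS core on the other strand at -16. These 4 genes differed by -0.11 (Cox6a1), -0.24 (Ndufa11), -0.071 (Atp5g2) and -0.0026 (Atp5k) in exoNOD against control on the log2 scale, and none passed the test described next. Of the 6 tissue-restricted isoforms tested, only Cox6b2, Cox7a1 and Cox8b had a promoter entry, and none of the 3 held any of the motifs. Atp5a1, Atp5mpl, Cox4i1, Cox4i2, Cox6a2, Cox6c, Cox8c, Ndufa2, Ndufa4l2, Ndufb9, Ndufs1, Sdhc, Uqcrb, Uqcrc2 and Uqcrq were among the genes not matched.

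On each array between 78.1% and 81.8% of 43020 spots were well above background, no spot was saturated, and the 75th percentile of the signal lay between 812 and 890. Levels are given as the log2 of the signal minus the log2 of that percentile, so that 0 is the brightness of the 75th percentile spot of an array. A level can be compared between arrays for 1 probe, not between probes. By scan time the arrays fell into 2 scan groups: the 3 controls and exoNOD 1 in the first, exoNOD 2 and exoNOD 3 in the second. No member had a spot left out, and 82 were above background on all 6 arrays. Groups were compared with limma over all 25782 genes with Benjamini-Hochberg adjustment at 0.05, first without and then with the replicate number as a block. Same-numbered control and exoNOD arrays deviated together from their group means (r between 0.281 and 0.481 across genes). The p-values rest on the spread between these samples, and the number of arrays limits the precision. In limma, the spread of each gene is drawn toward that shared by genes of similar brightness. With so few arrays this shared part weighs heavily, most of all in blocked fits that leave out a pair. A small p there is not evidence from the gene's own samples alone. Islet markers were present: the 10 beta cell markers and the 5 alpha cell markers were all measured, with summed signals of at least 1074 and 397 times the 75th percentile.

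None of the 83 respiratory chain genes passed the test without the block, where 0.105% of all genes did (0.101% higher and 0.00388% lower in exoNOD). At an unadjusted p under 0.05 limma marked 3 of them (Ndufa4l2, Ndufs7 and Ndufv1), or 3.61%, against 16.7% of all genes; 2 of the 3 were lower (2.41%, against 3.39% of all genes). With the replicate block 2 genes passed, or 2.41%, against 8.72% of all genes. At an unadjusted p under 0.05 the blocked fit marked 7 (8.43%), against 27.8%, and 4 of these were lower (4.82%), against 8.58%. Ndufa4l2, a hypoxia-inducible relative of a subunit, rose, and Cox6a2, the muscle-type form of a complex IV subunit, fell.

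For the other genes the 95% intervals of the fit without the block were mostly narrow. They describe the difference between these groups under 75th percentile scaling. They cannot bound the treatment effect alone, because most exoNOD arrays were scanned apart from all controls. The changes also depended on scaling. Without the block, Ndufs7 was at -0.39 and Ndufv1 at -0.37 under median scaling, but at -0.24 and -0.23 under quantile normalization. For 78 of the 83 genes (94%) the 95% interval of the log2 change lay within 0.5 on either side of 0, which held for 43.7% of all genes. The exceptions were Ndufa11, Ndufa4l2, Cox4i2, Cox6a2 and Cox8b, whose intervals were wider or reached further. A change beyond 0.25 was found in 4 genes (4.82%), namely Ndufa4l2, Cox6a2, Cox4i2 and Cox8b, against 35.4% of all genes. The probes of respiratory chain genes also varied less: the median standard error was 0.111 against 0.159 over all genes. Neither trait is particular to the chain. The median standard error was 0.107 for mitochondrial and 0.111 for cytosolic ribosomal proteins. The interval lay within 0.5 of 0 for 75 of 77 and 89 of 96 of these genes. A missed threshold does not show that a gene was unchanged. These are bulk samples, so fewer cells of a type and less RNA per cell cannot be told apart in any value given here.

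**Figure D1:**
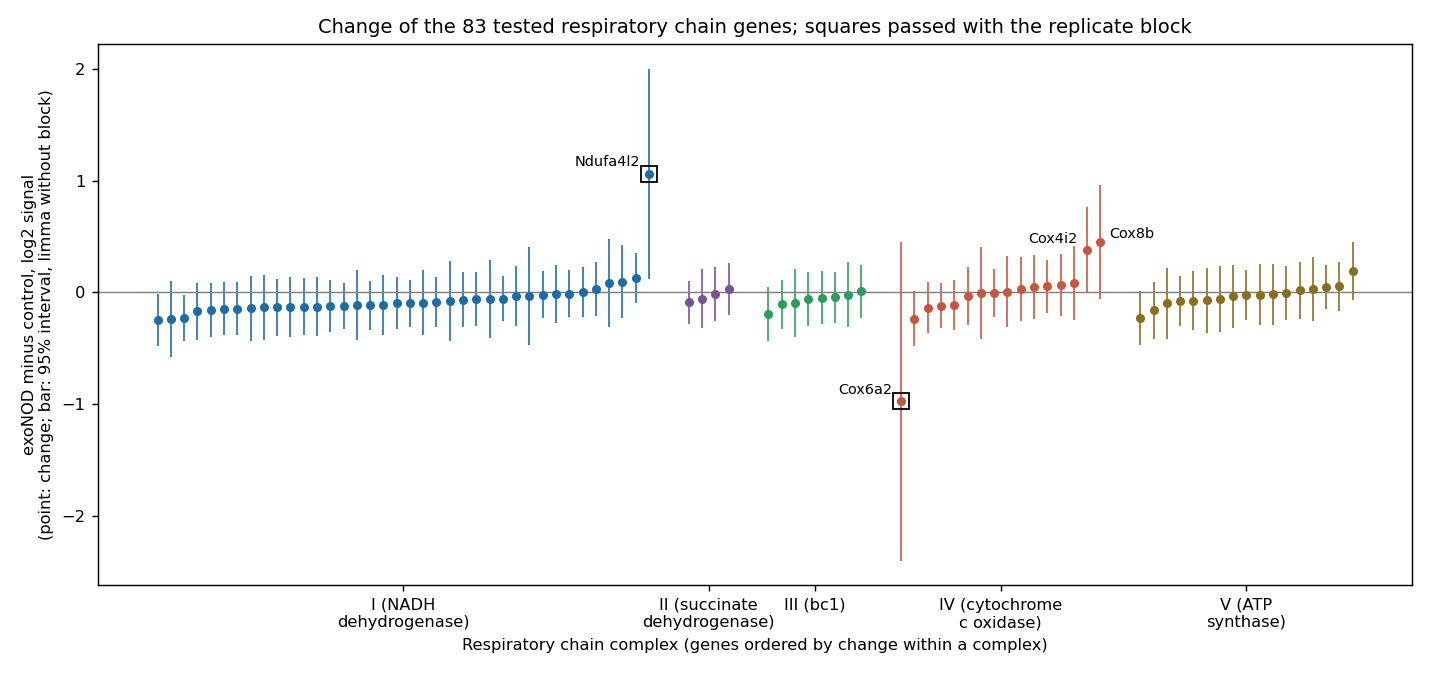
Log2 change (exoNOD minus control) of the 83 tested respiratory chain genes, grouped by complex and ordered by size, with the 95% interval from limma without the block. All but 4 genes lie within 0.25 of 0, and the squares mark Ndufa4l2 (1.06) and Cox6a2 (-0.97), which passed with the replicate block.

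Ndufa4l2 is the hypoxia-inducible relative of Ndufa4, a protein first placed in complex I, as its name says, and later found in complex IV. Its levels were -1.42, -1.94 and -1.04 in controls 1 to 3, and -0.12, -1.42 and 0.33 in exoNOD 1 to 3 (probe A_55_P1971244). Every exoNOD sample was above the control of its own number, by 1.30, 0.52 and 1.37, while exoNOD 2 lay no higher than control 1, so the groups overlapped. The log2 change was 1.06 ± 0.41 (SE, n = 3 per group), or 2.09-fold, and ran from 0.70 without exoNOD 3 to 1.57 without exoNOD 2. Its 95% interval ran from 0.12 to 2.00 without the block, and limma's adjusted p was 0.266, with a range of 0.116 to 1.00 over 18 alternatives. With the replicate block the standard error fell to 0.15 and the adjusted p to 0.00352, and it passed in each of the 7 blocked alternatives (largest adjusted p 0.0318). Within the first scan group, exoNOD 1 was 1.35 above the mean of the controls. Its partner Ndufa4 differed by -0.098 ± 0.10, with controls of 3.83, 3.76 and 3.66 and exoNOD samples of 3.76, 3.70 and 3.51.

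Ndufa4l2 and Cox4i2 are also known from pericytes and other mural cells of small vessels. Of the 10 pericyte and smooth muscle markers 9 were tested and none passed with either limma fit. At an unadjusted p under 0.05 limma marked none without the block, against 16.7% of all genes. With the block it marked 2 of 9, Pdgfrb (0.33) and Des (0.43), against 27.8% of all genes. The changes ran from -0.25 (Rgs5) to 0.43 (Abcc9), with 6 of 9 above 0 and a median of 0.21. The summed signal of the 10, in multiples of the 75th percentile, was 13.0 to 18.3 in controls and 12.8 to 17.5 in exoNOD samples. Most of it was Acta2, and without that gene the sums were 2.66 to 4.44 and 3.51 to 4.77, which overlapped. The part of these cells in the results for Ndufa4l2 and Cox4i2 was not tested.

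Cox6a2 is the heart and skeletal muscle form of a small subunit of complex IV. Controls 1 to 3 had levels of 1.62, 1.79 and -0.43, and exoNOD 1 to 3 of 0.45, 0.70 and -1.10 (probe A_51_P509997). Samples numbered 3 were far below the others in both groups, and every exoNOD sample was below the control of its number, by 1.17, 1.09 and 0.66. The change was -0.97 ± 0.63 (SE, n = 3 per group), or a level 1.96-fold higher in controls. It ran from -1.69 without control 3 to -0.42 without exoNOD 3, and had an interval from -2.40 to 0.45 and an adjusted p of 0.450 without the block. With the block the standard error was 0.11 and limma's adjusted p 0.00132; the largest over the 7 blocked alternatives was 0.0499, when pair 2 was left out. Among 18 alternatives without the block only the planned normexp background correction called it, and that call was lost (adjusted p 0.492) once probes with a bright background spot were left out. Within the first scan group the difference was -0.54. The widely expressed form, Cox6a1, had controls of 5.98, 5.93 and 5.88 and exoNOD samples of 5.93, 5.67 and 5.84, a change of -0.11 ± 0.099.

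Markers of muscle and of beta cells are given beside Cox6a2. The summed signal of 7 striated muscle markers was 0.207 to 0.243 in controls and 0.233 to 0.394 in exoNOD samples. Of these, 5 were tested and 1 (Tnnt2, by 2.02) rose with the block, against 6.89% of all genes. Of the 10 beta cell markers, 6 fell with the block (Slc2a2, Ucn3, Slc30a8, Nkx6-1, Pdx1 and Mafa), against 1.83% of all genes. The median change of the 10 was -0.34. Slc2a2, the glucose transporter, had levels of 3.11, 2.85 and 1.41 in controls and 2.21, 2.03 and 0.65 in exoNOD samples. Like Cox6a2 it was lowest in the samples numbered 3 of both groups, but it is only 1 of the 10 markers. The summed signal of the 10 was 1175, 1107 and 1163 in controls 1 to 3 and 1095, 1074 and 1078 in exoNOD 1 to 3. That sum was lowest in the samples numbered 2 of both groups. The part of these cells in the result for Cox6a2 was not tested.

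Cox4i2, the lung and oxygen-sensitive form of subunit 4, had levels of 0.64, 0.27 and 0.51 in controls and 0.50, 0.97 and 1.08 in exoNOD samples. Both exoNOD samples of the second scan group were above every control, while exoNOD 1, scanned with the controls, was 0.026 above their mean. The change of 0.38 ± 0.17 did not pass (limma's adjusted p 0.303, and 0.121 with the block). It passed, at 0.64, when pair 1 was left out of the blocked fit. That fit sets controls of the first scan group against exoNOD samples of the second, so treatment and scan group cannot be told apart. The partner of Cox4i2, Cox4i1, differed by -0.13 ± 0.10.

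Cox8b is the muscle and brown fat form of subunit 8, which most tissues express as Cox8a. Its probe was dim, above background on 1 of 3 control arrays and on 3 of 3 exoNOD arrays. The levels were -6.36, -6.48 and -6.10 in controls and -5.79, -5.73 and -6.06 in exoNOD samples. The exoNOD samples all lay above the controls, which among the respiratory chain genes was seen for Cox8b alone (14.6% of all genes), but the probe was kept only because the exoNOD arrays were above background, so nothing is read from this. The change of 0.45 ± 0.22 did not pass (adjusted p 0.339, and 0.295 with the block, from limma), and it ran from 0.043 to 0.86 over the alternatives. Cox8a had a change of -0.12 ± 0.088.

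The muscle-type Cox7a1 and the testis-type Cox6b2 differed little. Cox7a1 had levels of -1.82, -2.10 and -1.87 in controls and -1.71, -2.31 and -1.79 in exoNOD samples. Cox6b2 had -0.68, -0.86 and -0.84 in controls and -0.92, -0.76 and -0.79 in exoNOD samples. The groups overlapped for both genes, with changes of -0.0056 and -0.030.

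The ratio of an isoform to its partner, read on the same array, does not depend on the scaling between arrays. It was compared in 6 pairs by the exact two-sided permutation test, whose smallest p with 3 against 3 samples is 0.1. The log2 ratio of Ndufa4l2 to Ndufa4 was 1.16 higher in exoNOD samples (-4.06 ± 0.98, SD, n = 3) than in controls (-5.22 ± 0.50), with an exact p of 0.2 and an adjusted value of 0.4, and was higher in 3 of 3 pairs. Cox4i2 to Cox4i1 was 0.51 higher (exact p 0.2, adjusted 0.4; higher in 2 of 3 pairs). Cox8b to Cox8a was 0.57 higher, which rests on the dim probe of Cox8b and is a description only. Cox6a2 to Cox6a1 was lower in all 3 pairs, by 0.86 on average (a difference of -0.86; exact p 0.5, adjusted 0.75). Cox6b2 to Cox6b1 differed by -0.079 (exact p 0.7) and Cox7a1 to Cox7a2 by -0.013 (exact p 0.8). Thus no ratio reached 0.05, which this design cannot give.

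**Figure D2:**
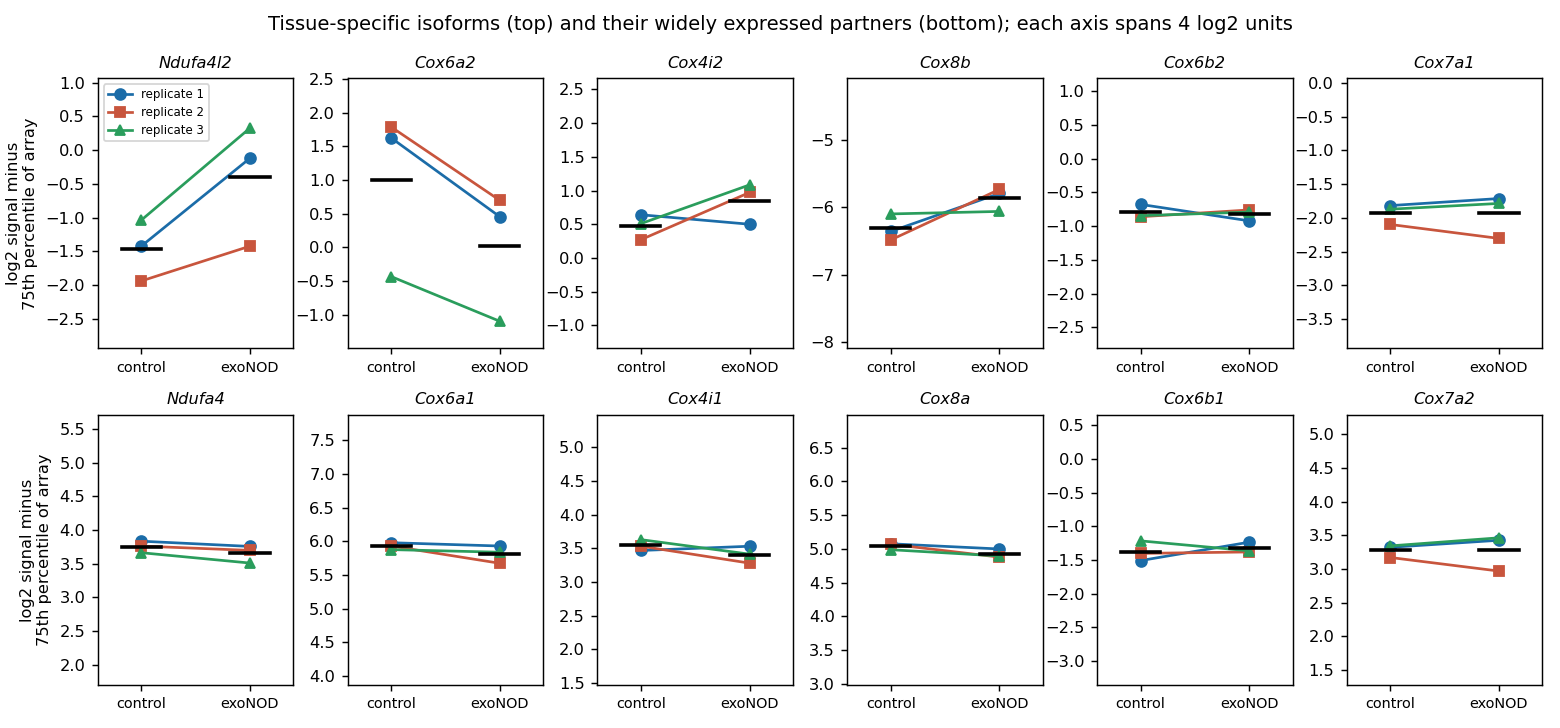
Log2 level on each array of 6 tissue-restricted isoforms (top) and their widely expressed partners (bottom), with lines joining samples of equal replicate number, black bars for group means, and axes of equal span. The lines of Ndufa4l2 all go up and those of Cox6a2 all go down, while the partners stay within a narrow band.

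Complex I takes electrons from NADH. Ndufa4 and Ndufa4l2 are counted in it by their symbols. The median change of its 38 genes was -0.098, against 0.035 over all genes, and 32 of the 38 had a change below 0. Its 7 core subunits, which carry the flavin and the iron-sulfur clusters, had changes between -0.25 and -0.014, with a median of -0.13. On exoNOD 1, the treated array scanned with the controls, the direction turned: 5 of the 7 core genes were above the control mean (median 0.022), as were 30 of all 38 genes of the complex (median 0.025). The 31 other genes of the complex had a median of -0.087.

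Among the core subunits, Ndufs7 and Ndufv1 had the lowest p. Ndufs7, which holds the cluster next to the ubiquinone site, had levels of 3.28, 3.40 and 3.44 in controls and 3.21, 2.97 and 3.20 in exoNOD samples. Ndufv1, the flavoprotein that binds NADH, had levels of 4.03, 4.01 and 3.95 in controls and 3.84, 3.70 and 3.77 in exoNOD samples. All exoNOD samples were below all controls for both genes. The changes were -0.25 ± 0.10 and -0.23 ± 0.089, and limma's adjusted p was 0.286 and 0.266, or 0.118 and 0.114 with the block, so neither passed. Ndufb10, a subunit of the membrane arm, also had no overlap (change -0.12 ± 0.091). In all, 7 genes of the chain lay lower without overlap (Atp5d, Cox7a2l, Ndufb10, Ndufs7, Ndufv1, Sdha and Uqcr10), or 8.43%, against 7.79% of all genes.

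The greatest positive change in complex I after Ndufa4l2 was that of Ndufs4 (0.13 ± 0.098), an accessory subunit needed for a stable complex. Ndufs1, the largest core subunit, changed by -0.13 ± 0.11 and Ndufv2 by -0.014 ± 0.11. Ndufa11, a membrane arm subunit, had the next lowest change after Ndufs7 (-0.24 ± 0.15), with controls of -2.19, -2.04 and -1.79 and exoNOD samples of -2.13, -2.40 and -2.21, which overlapped.

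Complex II, the succinate dehydrogenase shared with the citric acid cycle, had a median of -0.035 over its 4 genes. Sdha, the flavoprotein that binds succinate, had levels of 3.09, 3.12 and 3.07 in controls and 3.04, 2.96 and 3.02 in exoNOD samples. The exoNOD samples were all below the controls, but by little: the change was -0.089 ± 0.085 (limma's adjusted p 0.612). The iron-sulfur subunit Sdhb differed by -0.055 ± 0.12, and the membrane anchors Sdhc and Sdhd by 0.033 ± 0.10 and -0.015 ± 0.11.

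Complex III passes electrons from ubiquinol to cytochrome c. The median of its 8 genes was -0.053. Uqcr10, a small subunit, had the lowest change, with controls of 3.20, 3.17 and 3.21 and exoNOD samples of 3.14, 2.82 and 3.04. These did not overlap, and the change of -0.19 ± 0.11 did not pass (limma's adjusted p 0.387, and 0.189 with the block). Uqcr11 differed by -0.10 ± 0.096, the hinge protein Uqcrh by -0.094 ± 0.13, and the Rieske iron-sulfur protein Uqcrfs1 by 0.0098 ± 0.10.

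Complex IV, cytochrome c oxidase, had a median of 0.0011 over 16 tested genes, with 8 below 0 and 8 above. Its 11 genes other than the tissue-restricted isoforms lay between -0.23 and 0.084. Cox7a2l, a protein that has been linked to supercomplexes of complexes III and IV, was at the low end of these. Its levels were 5.77, 5.89 and 5.93 in controls and 5.70, 5.46 and 5.73 in exoNOD samples. The samples did not overlap; the change of -0.23 ± 0.11 did not pass (limma's adjusted p 0.311, and 0.187 with the block). All 3 of its probes lay lower, between -0.27 and -0.20. The other partner isoforms had changes of 0.0076 (Cox7a2), 0.030 (Cox7b) and 0.049 (Cox6b1).

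Complex V, the ATP synthase, had a median of -0.023 over 17 genes. The 5 genes of its catalytic F1 part (Atp5a1, Atp5b, Atp5c1, Atp5d and Atp5e) spanned all of its range, and the 12 others lay between -0.098 and 0.055. Atp5d, a subunit of the central stalk, had levels of 0.78, 0.97 and 0.94 in controls and 0.76, 0.56 and 0.68 in exoNOD samples, all below the controls. Its neighbour in the stalk, Atp5c1, had levels of 3.69, 3.60 and 3.78 in controls and 3.85, 3.71 and 4.08 in exoNOD samples, each above the control of its number. The changes were -0.23 ± 0.11 and 0.19 ± 0.12, with limma's adjusted p of 0.314 and 0.420, or 0.148 and 0.173 with the block. Atp5d passed in the blocked fit under median scaling (-0.37, limma's adjusted p 0.0483) and without pair 1 (-0.34, adjusted p 0.0403). The third stalk gene, Atp5e, differed by -0.16 ± 0.11, and the catalytic subunit Atp5b by 0.019 ± 0.11.

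Over the whole chain, 62 of 83 genes (74.7%) had a change below 0, against 44.6% of all genes, and the median was -0.060 against 0.035. The cytosolic ribosomal proteins, also encoded by abundant transcripts, had a median of -0.074 over 96 genes, and the mitochondrial ribosomal proteins of -0.085 over 77. The lower values came mostly from 1 array. Relative to the mean of the controls, the median of the 83 genes was 0.066 on exoNOD 1, -0.23 on exoNOD 2 and -0.048 on exoNOD 3, and on the controls it was 0.023, -0.0033 and -0.018. On exoNOD 1, the only treated array of the first scan group, 66 genes were higher than the control mean, whereas on exoNOD 2 75 were lower. Median scaling in place of the 75th percentile put the median of all genes at -0.11 and that of the chain at -0.20, a shift that moves all genes alike. With quantile normalization the chain was at -0.062 and all genes at -0.024. Without exoNOD 2 the median change of the chain was 0.026, and within the first scan group 0.066. A lower level in all 3 pairs was found in 17 genes (20.5%), against 22.1% of all genes. A higher level in all 3 pairs was found in Atp5c1 and Ndufa4l2, and in Cox8b, whose probe passed the filter through the exoNOD arrays; the share over all genes was 29%.

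**Figure D3:**
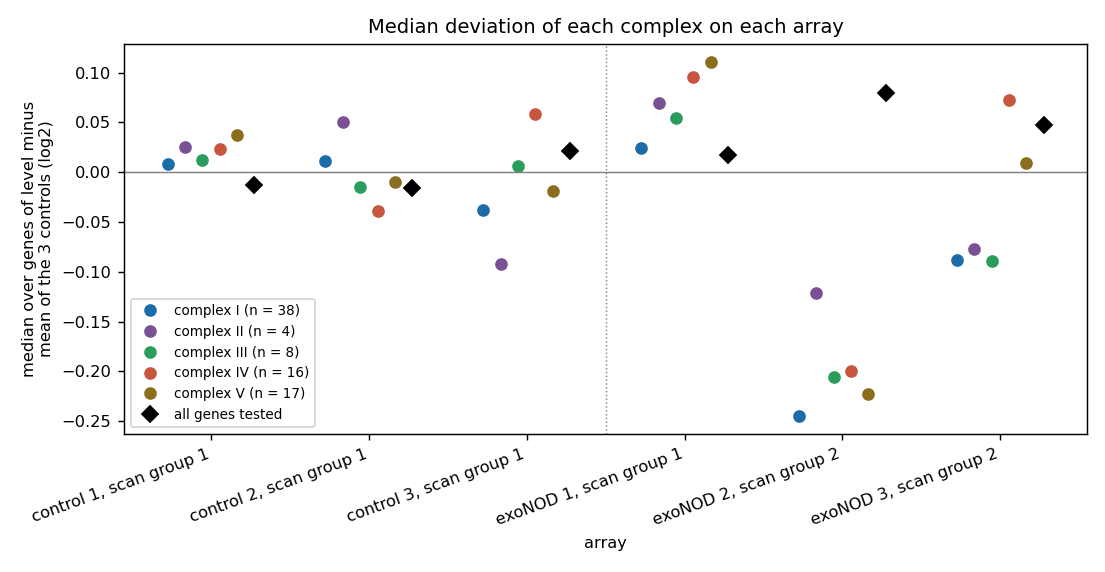
Median deviation from the control mean (log2) of each complex and of all tested genes on each of the 6 arrays, with the scan group of the array. Every complex lies below 0 on exoNOD 2 (between -0.12 and -0.25) and above 0 on exoNOD 1.

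Most genes with a choice of probes gave similar changes on each. Of 21 genes with 2 or more probes, 15 had the same sign on all, and the median range between probes was 0.059. The dimmest probe of Cox7c, a subunit of complex IV, gave a change of 0.58, which passed with the block among all probes (limma's adjusted p 0.0381), while its brighter probes gave 0.054 and -0.13. The dimmest probe of Uqcr10 gave 0.51 (0.0521 with the block), against -0.19 and -0.16 on the brighter ones. The changes of these 2 genes therefore depend on the probe, and the cause was not tested.

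The genes that build, feed and control the chain, and some that respond to low oxygen, were counted in 10 lists with 124 tested genes. None passed without the block, where limma marked 13 (10.5%) at an unadjusted p under 0.05, against 16.7% of all genes. With the block 5 rose and 2 fell (4.03% and 1.61%), against 6.89% and 1.83% of all genes. The 13 subunits encoded in mitochondrial DNA had no matched probe.

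Of the 22 tested assembly factors of complex IV, 2 rose with the block, against 6.89% of all genes. The copper chaperone Cox17 had levels of 1.83, 1.94 and 1.89 in controls and 2.02, 2.51 and 2.72 in exoNOD samples, with no overlap. Its change was 0.53 ± 0.17 (limma's adjusted p 0.220, and 0.0208 with the block), and within the first scan group it was 0.13. Lrpprc, which stabilises mitochondrial messenger RNA, was 0.34 ± 0.14 higher (adjusted p 0.0319 with the block in limma). Cox15, an enzyme of heme A synthesis, differed by 0.27 ± 0.10 and did not pass. No gene passed among the assembly factors of complexes I (15 genes), II (4), III (5) and V (4); Sdhaf1 differed by -0.28 and Bcs1l, which inserts the Rieske protein, by 0.35.

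Among 14 genes of the electron carriers and coenzyme Q synthesis, Coq8a, a kinase-like protein of that synthesis, fell in the fit with the block by 0.59 on the log2 scale (limma's adjusted p 0.0154). Its levels were -1.93, -1.68 and -2.44 in controls and -2.51, -2.28 and -3.02 in exoNOD samples, lower by 0.58, 0.60 and 0.58 in the 3 pairs. Among 14 uncoupling proteins and carriers, Gpd2, the glycerol phosphate shuttle enzyme that brings cytosolic electrons to the chain, fell by 0.34 (adjusted p 0.0428 with the block in limma). Ucp2 differed by -0.32 and Ucp3 by -0.29, without passing. The 17 genes of the citric acid cycle and pyruvate dehydrogenase had a median of -0.064 and none passed. The 21 genes of mitochondrial biogenesis and mitochondrial DNA had a median of -0.053, and none passed.

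The list of hypoxia-responsive genes had the highest median, 0.35 over 8 genes, and 3 of the 8 rose with the block, against 6.89% of all genes. Egln3, an oxygen-sensing prolyl hydroxylase, had levels of -4.55, -4.87 and -3.60 in controls and -2.59, -3.74 and -1.51 in exoNOD samples, above the control of its number by 1.96, 1.13 and 2.09. Its change was 1.72 ± 0.53 (limma's adjusted p 0.218, and 0.00160 with the block). As with Ndufa4l2, the second pair had the smallest difference. Higd1a, an inner membrane protein of the complex IV surroundings, was 0.36 ± 0.13 higher, and Bnip3, a receptor for the removal of mitochondria, 0.35 ± 0.13 higher (adjusted p 0.0381 and 0.0469 with the block in limma). Pdk1, which shuts pyruvate dehydrogenase, differed by 0.60 ± 0.36 and did not pass (0.0534 with the block). Bnip3l differed by 0.027 and Lonp1 by -0.18.

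**Figure D4:**
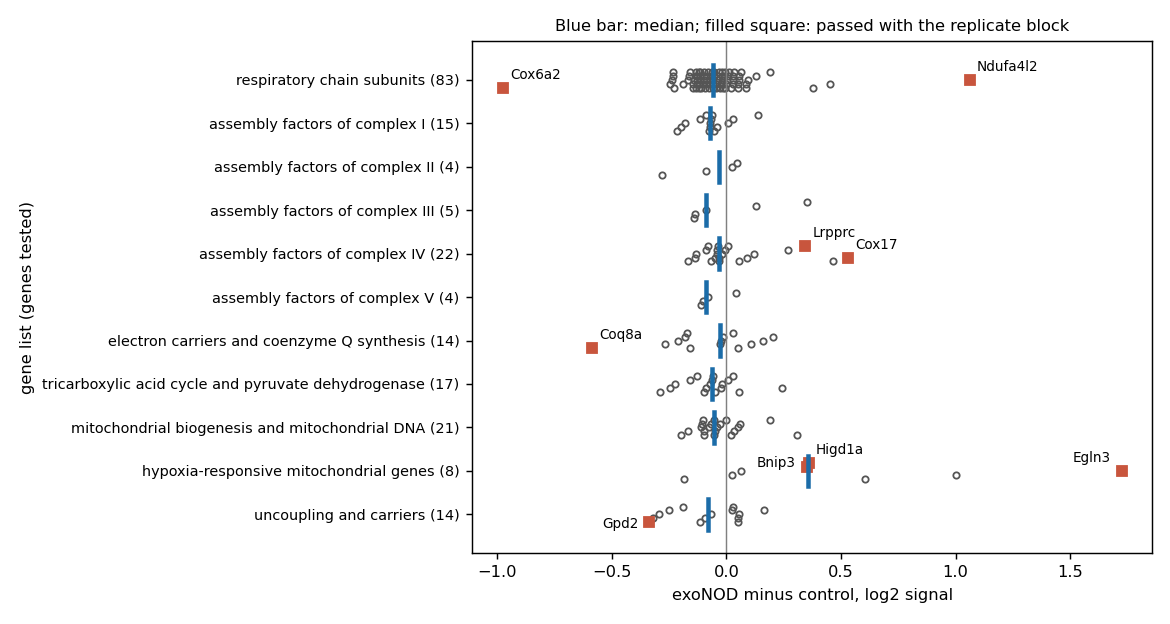
Log2 change (exoNOD minus control) of each tested gene in the respiratory chain and in 10 lists of genes that build, feed or control it or respond to low oxygen, with the median of each list as a bar. The squares are genes that passed with the replicate block; only the hypoxia-responsive list has a median (0.35) away from 0 by more than 0.1.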

How the data were processed

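Total RNA of dispersed islet cells was labelled with Cy3 and hybridised to Agilent mouse arrays, 3 control and 3 exoNOD. The deposited files are, per the file headers, output of Agilent Feature Extraction 11.0.1.1, and their processed signal is an intensity, corrected for background by that software and not scaled between arrays. Spots above background, saturated or uneven are marked by flags in the deposited files (other values, 0 or 1). A series-wide table holds the authors' processed values on the log2 scale; each of its columns matched its own array best.

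The log2 of the processed signal was scaled by subtracting its own array's 75th percentile (control spots aside), uneven or outlying spots were left out (0.381% to 0.618%), and spots of a probe were averaged. A probe was kept when every array of either group had it well above background (31065 of 39429). Of all probes, 27234 had a gene symbol through their RefSeq accession and 12195 kept their own name; the brightest probe stood for its gene. The fit was limma 3.58.1 (lmFit, eBayes with a trend) in R 4.3.3, with data.table (version 1.17.8), and was tested on simulated data. Same-numbered arrays of both groups correlated in their deviations from the group means (r of 0.366, 0.281 and 0.481, against -0.341 to 0.0087 for other pairs). Deviations from a group mean cancel out, so positive values for equal numbers force lower ones for other pairs. The labels give the numbers and state 3 independent experiments, and do not say that a number marks 1 preparation. The block rests on these correlations, which come from the same data as the tests.

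Isoform ratios were compared by exact permutation with scipy 1.17.1, promoters were scanned as text, and other alternatives were background correction (normexp on the median foreground signal, since no mean signal is in the files used here), scaling, filter, probe choice, scan group as a block, array weights and leaving out arrays. Named genes were drawn from those past the threshold, the 3 lowest p and the extremes of each complex, isoform pairs and Cox7a2l, and the 3 lowest p of each pathway list; Ndufs4, Ndufs1, Ndufv2, Ndufa11, Ndufb10, Cox7c, Sdhd, Atp5b, Pdk1, Bnip3l and Lonp1 were added after their values were seen. The members and lists were chosen with earlier results of these data known.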

Additional observations from a re-analysis of the deposited data

How the results depend on the processing

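Of the 26 respiratory chain genes compared across the alternatives, 11 kept the direction of their change in each one run, Ndufa4l2, Cox6a2, Cox4i2, Cox8b, Ndufs7 and Ndufv1 among them. With the replicate block, which follows the pairing of equal numbers, 1 gene rose and 1 fell, and the same counts came with the block and quantile normalization or the authors' values; with the block and median scaling 1 rose and 3 fell, with the block and pair 1, 2 or 3 left out 2, 1 and 1 rose and 2, 1 and 1 fell, and without the block no array left out gave a call. The planned normexp correction called 1 gene lower; an alternative chosen after seeing the data, which left out probes with a bright background spot, called none. Median scaling, with or without the block, moved the medians of all members and of complexes I to V to -0.20, -0.24, -0.18, -0.19, -0.14 and -0.16, because the median of all genes moved with it; normexp gave -0.24, -0.28, -0.21, -0.24, -0.18 and -0.25 while the median of all genes went to 0.34, and without the bright background spots all members returned to -0.054 (all genes 0.0053). The scan group as a block, and the first scan group alone, gave 0.066 for all members and 0.025, 0.069, 0.054 and 0.11 for complexes I, II, III and V, with exoNOD 1 as the only treated array that carries the comparison. Leaving out an array moved the median of all members between -0.13 and 0.026, that of complex I between -0.15 and -0.029, of II between -0.085 and 0.0079, of III between -0.14 and 0.015, of IV between -0.053 and 0.11, and of V between -0.10 and 0.073; the positive end came without exoNOD 2 for all members.

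The other directions that turned belong to changes that passed no test, the extremes Atp5c1 (0.19) and Uqcr10 (-0.19) of their complexes included, and the cause was not tested. The ratio Cox6b2 to Cox6b1 ran from -0.18 to 0.046 when an array was left out and was 0.14 without pair 1, and Cox7a1 to Cox7a2 ran from -0.054 to 0.021, with 0.45 under normexp and 0.068 in the first scan group. Under normexp the change of Atp5c1 was -0.019, of Cox6b2 0.068, Cox7a1 0.26, Cox7a2 -0.19, Cox7b -0.16, Sdhc -0.17 and Uqcrfs1 -0.19. Under median scaling, with or without the block, Cox6b1 was at -0.092, Cox7a2 -0.13, Cox7b -0.11, Sdhc -0.11 and Uqcrfs1 -0.13. Cox6b1 was at -0.0067 under quantile normalization and -0.0076 with the authors' values, with and without the block. In the first scan group alone or with the scan group as a block, Atp5e was at 0.032, Cox6a1 0.0014, Cox7a1 0.22, Ndufa4 0.0035, Sdhb 0.13, Uqcr11 0.016 and Uqcrh 0.019. Array weights put Cox7a1 at 0.070, and the mean of all probes put Sdhc at -0.066 and Uqcr10 at 0.054. With an array left out, Cox6b1 ran from -0.018 to 0.13, Cox6b2 from -0.063 to 0.028, Cox7a1 from -0.12 to 0.18, Cox7a2 from -0.081 to 0.17, Cox7b from -0.055 to 0.16, Sdhb from -0.15 to 0.028, Sdhc from -0.030 to 0.10, Uqcrfs1 from -0.036 to 0.095 and Uqcrh from -0.19 to 0.054. In the blocked fit without pair 1, Cox6b1 was at -0.063, Cox6b2 0.077, Cox7a2 -0.041, Cox7b -0.073 and Uqcrfs1 -0.029; without pair 2, Cox7a1 was at 0.095, Sdhb 0.066 and Uqcrh 0.030; without pair 3, Cox7a2 was at -0.048, Sdhc -0.014 and Uqcrfs1 -0.0044. The probe of Cox8b is near background, which limits its value.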

Other observations

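Some other cell type markers moved in the same arrays. Macrophage markers Adgre1, Aif1 and Itgam fell with the replicate block in limma, 3 of 5 tested, against 1.83% of all genes. The median of the 5 was -0.50. The summed signal of the macrophage list was 20.9 to 22.3 times the 75th percentile in controls and 15.7 to 16.0 in exoNOD samples, with no overlap. A lower sum without overlap was not particular to macrophages, but the shift was smaller in proportion in the other lists. The beta cell sum was 1107 to 1175 in controls and 1074 to 1095 in exoNOD samples. The alpha cell sum was 424 to 442 and 397 to 404, with a median change of -0.10. The endothelial sum was higher without overlap (7.22 to 8.35 in controls, 8.65 to 9.29 in exoNOD samples). So was the B lymphocyte sum (0.177 to 0.213 in controls, 0.303 to 0.351 in exoNOD samples). Of all genes tested, 7.79% were lower and 14.6% higher without overlap. Among 6 endothelial markers, 4 had a change below 0 and the median was -0.15, so the sum went against most of its list. With the block 2 fell (Cdh5 and Emcn) and 1 rose (Plvap). Over all genes these shares were 1.83% and 6.89%. The sperm-type lactate dehydrogenase Ldhc differed by 1.52 and passed without the block (limma's adjusted p 0.0488). It was the only 1 of 6 tested testis markers to pass, against 0.105% of all genes. The sum of the 7 testis markers overlapped (0.738 to 1.07 in controls, 0.808 to 0.954 in exoNOD samples). The testis isoforms Cox7b2 and Cox8c of complex IV were below background on every array. The testis-type Cox6b2 was above background on every array and differed by -0.030.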
